A study of Mus musculus with 8 samples.

Results

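A list of 10 genes was followed: the enzymes that remove methyl groups from lysine 27 or lysine 4 of histone H3 and the proteins that help to add them at lysine 4. They are Kdm6a, Kdm6b, Kdm5a, Kdm5b, Kdm5c, Kdm1a, Setd1a, Setd1b, Ash2l, and Wdr5. A gene was taken when the gene name of a row was one of these symbols, and 9 of the 10 listed genes have a row, among 23021 rows, or 21832 genes once rows of small RNAs were left out and rows of one symbol were summed. Setd1b is not analysed here. RNA sequencing was done on retinas of slc:ICR mice, an outbred albino stock, with no transgene or treatment, and there were 8 libraries, 1 for each condition. Whole retinas were used at embryonic day 15 (E15) and day 18 (E18). At postnatal day 2 (P2), day 5 (P5), and day 8 (P8), retinas were pooled, dissociated with trypsin, and sorted with an antibody to Cd73, a surface enzyme of rod precursors and rods encoded by Nt5e, into a fraction that stained (Cd73PC) and a fraction that did not (Cd73NC). Cd73NC is therefore a mixture of all cells that did not stain, and the embryonic libraries differ from the postnatal libraries in sorting as well as in age.

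Trimethylation of H3 lysine 4 (H3K4me3) sits at active promoters, and trimethylation of H3 lysine 27 (H3K27me3), written by polycomb repressive complex 2 (PRC2), accompanies gene silencing. Kdm6a (Utx) and Kdm6b (Jmjd3) remove methyl groups from lysine 27, the Kdm5 enzymes remove them from trimethylated and dimethylated lysine 4, and Kdm1a (Lsd1) takes them from dimethylated and monomethylated lysine 4. Setd1a and Setd1b are lysine 4 methyltransferases, and Ash2l and Wdr5 are subunits that the Setd1 and Mll enzymes share. In the retina, progenitor cells leave the cell cycle and become rods in large numbers around birth, and Kdm6b is known for a role in bipolar interneurons and Kdm5b for a role in rods.

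Expression is given as FPKM, the number of fragments of a gene scaled to its transcript length and to the mapped fragments of the library, so levels may also be compared between genes. Cufflinks, the program that made the values, gave each FPKM a lower and an upper confidence bound. The bounds reflect uncertainty within a library and not the spread between animals. Since no condition has a replicate library, no difference at a single age was tested or can be set against a replicate error. Over the 3 ages, the fractions form 3 pairs of libraries from the same pools, and limma was fitted to log2(FPKM + 1) of these 6 libraries with age as a block. That test was added after the values were seen, and its error includes any change of the fraction difference with age. Ratios are on FPKM + 1, and a gene is said to be past 1.5-fold when the higher library has at least 1.5 times the value of the lower. The half-width of the bounds was 2.67% to 9.51% of the member's FPKM, with a median of 5.51%. In 4 of the 72 member values, all of Kdm1a, the FPKM lay above its own upper bound.

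The label of the fractions was checked first. Nt5e had an FPKM of 97.3, 131, and 124 in Cd73PC at P2, P5, and P8, against 2.43, 31.4, and 9.38 in Cd73NC and 0.447 and 2.76 at E15 and E18. The summed FPKM of 8 rod markers was 4088, 8883, and 14078 in Cd73PC and 79.6, 1076, and 980 in Cd73NC. Relative to Cd73PC of the same age, the rod sum of Cd73NC was thus 1.95%, 12.1%, and 6.96%, and at P5 the Cd73NC library held both the rod genes and Nt5e. The sum of 8 proliferating progenitor markers was 1346 at E15 and 825 at E18, then 650, 148, and 20.9 in Cd73NC and 183, 42.4, and 5.99 in Cd73PC, so that Cd73PC had 28.1% to 28.7% of the Cd73NC sum at each age. Only Fgf15 (723 and 299) and Sfrp2 (232 and 51.4) of this list were lower at E18 than at E15. The cell cycle genes of the list were all higher at E18, among them Mki67 (56.4 and 60.9) and Ccna2 (77.5 and 105). Among the other lists, the bipolar sum (8 genes) reached 1187 in Cd73NC at P8 and 142 in Cd73PC, the Muller glia sum (7 genes) was 1098 to 1525 in Cd73NC and 321 to 480 in Cd73PC, and the ganglion cell sum (8 genes) was 954 and 596 in the embryonic libraries and at most 19.9 after birth. Amacrine (6 of 8 genes found), cone (6), horizontal (4), microglial (6), and endothelial (6) sums ranged over the 8 libraries from 40.4 to 312, 23.8 to 165, 0.536 to 23.5, 7.70 to 153, and 13.3 to 169. The erythroid sum (5 genes) ranged from 40.2 in Cd73PC at P2 to 7007 in Cd73NC at P8.

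**Figure D1:**
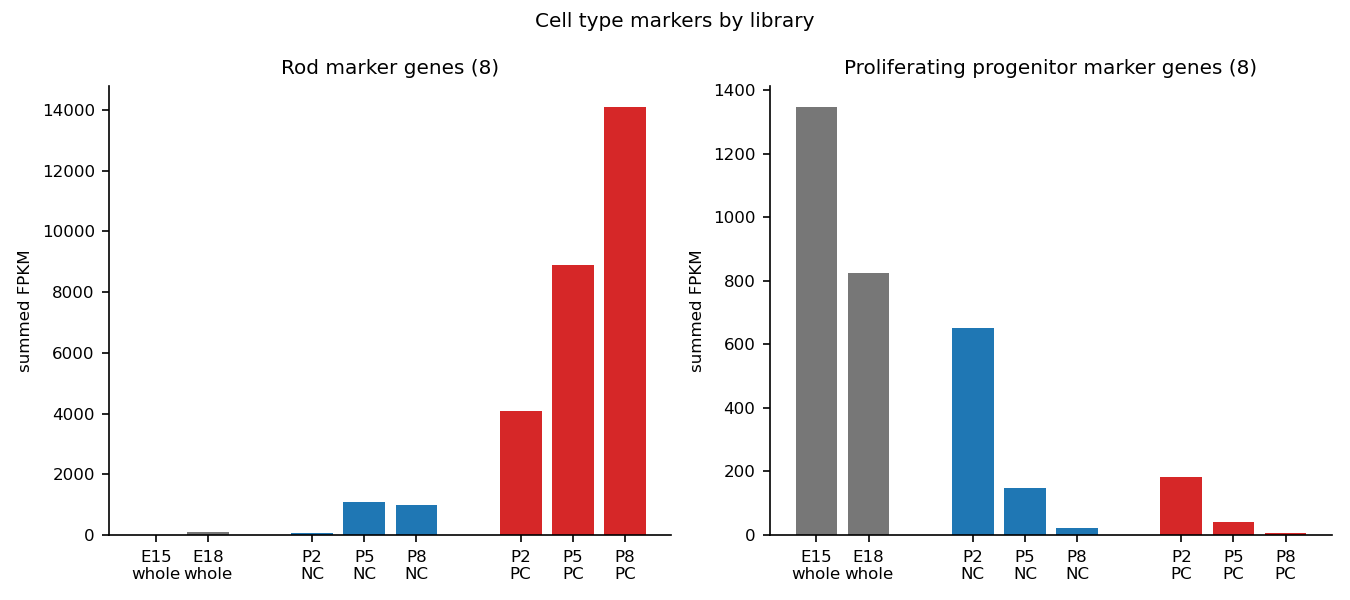
Summed FPKM of the rod markers (left) and of the proliferating progenitor markers (right) in each of the 8 libraries, with whole retinas in grey, Cd73NC (NC) in blue, and Cd73PC (PC) in red; each bar is 1 library. The rod sum is 4088 to 14078 in Cd73PC and at most 1076 elsewhere, and the progenitor sum is highest at E15 (1346, of which Fgf15 is 723) and lowest in Cd73PC at P8 (5.99).

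All 9 genes were expressed in every library. Their FPKM ranged from 10.1 for Kdm5a in Cd73NC at P8 to 80.7 for Kdm1a in Cd73NC at P5, which placed them between the 44.4 and the 93.6 percentile of the genes with an FPKM of at least 1 in a library. By the median over the 8 libraries the order was Kdm1a (61.0), Kdm5b (50.2), Ash2l (32.0), Kdm6b (27.9), Kdm5c (27.6), Wdr5 (25.4), Kdm6a (13.3), and both Setd1a and Kdm5a (11.8). The ratio of the highest to the lowest library on the FPKM scale was 3.90 for Kdm6b, 2.96 for Kdm5b, 2.61 for Ash2l, 2.51 for Wdr5, and 2.04 for Kdm1a, and it was 1.37 to 1.78 for the other 4 genes. In bulk RNA of this kind, fewer cells of a type and less RNA per cell cannot be told apart.

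**Figure D2:**
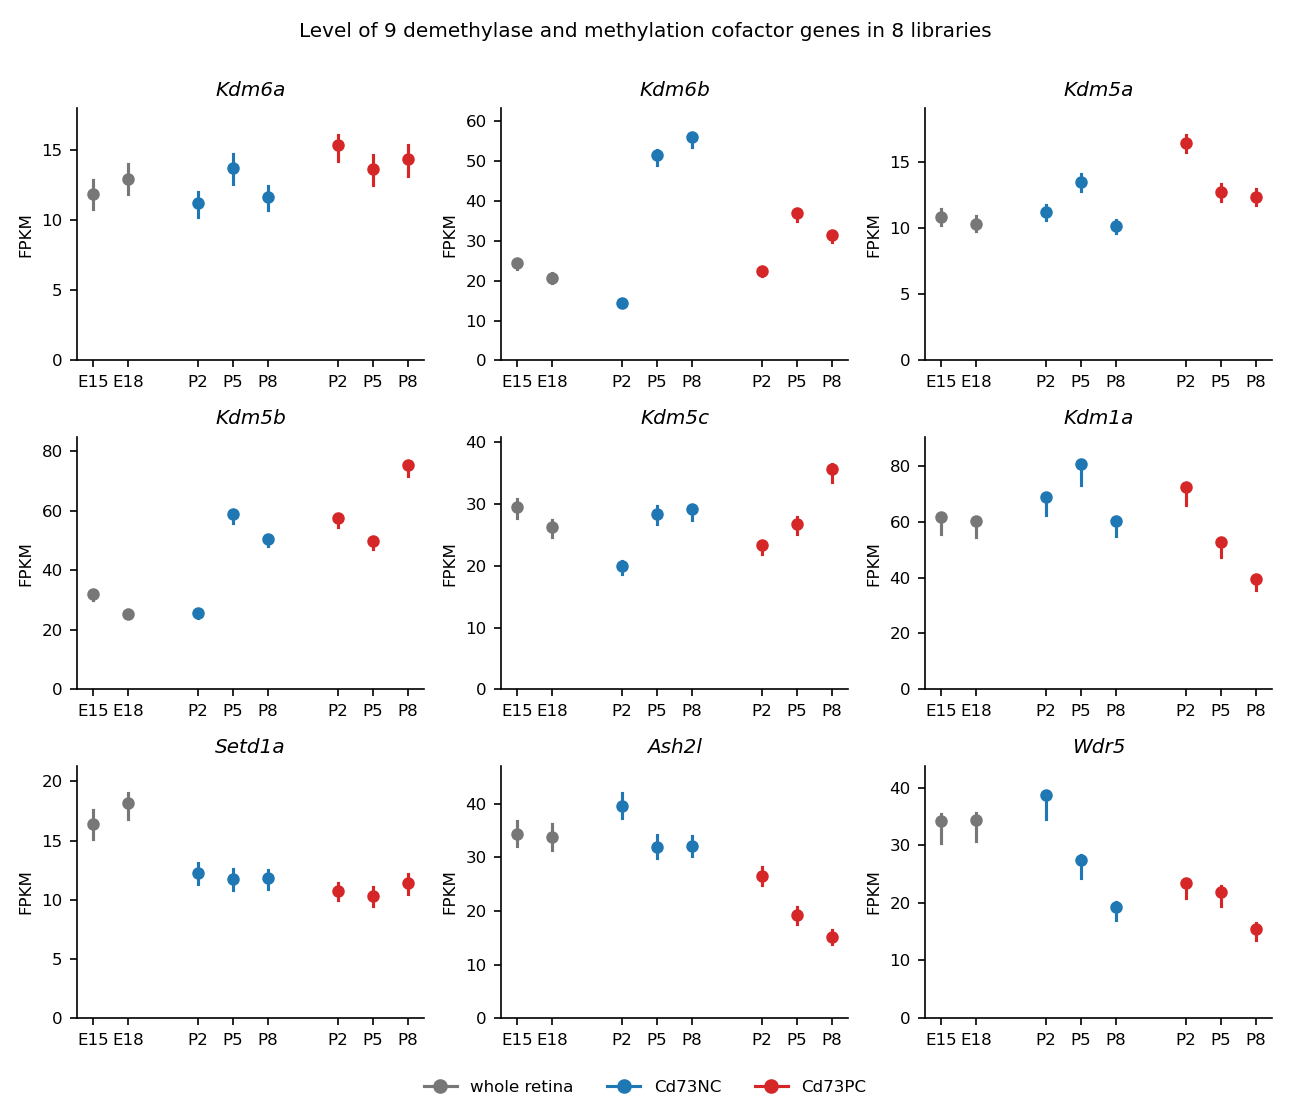
FPKM of the 9 genes (vertical axes, from 0, with a different scale in each panel) in the 8 libraries by age; points are single libraries and bars run from the lower to the upper Cufflinks bound, with whole retinas in grey, Cd73NC in blue, and Cd73PC in red. Kdm6b is highest in Cd73NC at P8 (56.1) and Kdm5b in Cd73PC at P8 (75.3), whereas Ash2l and Wdr5 are lowest in Cd73PC at P8 (15.2 and 15.4).

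For 6 of the 10 listed genes a RefSeq promoter entry could be matched (mouse build GRCm38.p6, while the FPKM tables use NCBI37/mm9). The 250 bases before the annotated start are printed for Kdm5b, the member with the largest excess in Cd73PC at P2, and for Wdr5, the member with the largest deficit there, with each CG dinucleotide in capitals. The Kdm5b window lies at chr1:134559928-134560177 on the plus strand and the Wdr5 window at chr2:27514897-27515146 on the plus strand.
Kdm5b: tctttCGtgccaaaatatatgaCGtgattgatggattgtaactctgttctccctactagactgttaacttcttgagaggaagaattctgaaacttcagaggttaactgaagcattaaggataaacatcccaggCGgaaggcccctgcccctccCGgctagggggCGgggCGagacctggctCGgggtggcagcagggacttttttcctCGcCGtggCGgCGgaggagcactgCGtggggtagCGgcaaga
Wdr5: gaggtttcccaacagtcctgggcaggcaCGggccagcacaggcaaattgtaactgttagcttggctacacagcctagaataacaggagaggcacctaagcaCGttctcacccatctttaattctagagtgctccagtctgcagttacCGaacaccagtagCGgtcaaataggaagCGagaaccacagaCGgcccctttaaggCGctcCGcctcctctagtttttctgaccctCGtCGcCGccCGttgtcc
The Kdm5b window holds 13 and the Wdr5 window 12 CG dinucleotides. The other 4 windows hold 25 (Setd1a), 21 (Kdm1a), 15 (Kdm6a), and 10 (Kdm5c), against a median of 6 and an upper quartile of 16 over the 32851 windows of this length. The GC box GGGCGG, searched on both strands, was found in 3 of the 6 windows (Kdm5b, Kdm6a, and Wdr5), and in 32.7% of all windows. The letters TAATCC, the core that the photoreceptor factors Crx and Otx2 bind, were in 0 of the 6 windows on either strand and in 6.25% of all windows. Kdm5b and Wdr5, which differed most at P2 and in opposite directions, had similar CG counts and both had the GC box in this window.

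Lysine 27 demethylases were compared first. Kdm6b (chr11:69212020-69227177, minus strand) had an FPKM of 24.4 at E15, 20.8 at E18, 14.4, 51.5, and 56.1 in Cd73NC at P2, P5, and P8, and 22.5, 36.9, and 31.3 in Cd73PC. Cd73NC at P2 was the lowest library of all, and Cd73NC at P5 and P8 the highest. The bounds of neighbours in this order overlapped in 2 of 7 pairs, E18 with Cd73PC at P2 and Cd73PC at P2 with E15. The bounds of E18 and E15 did not overlap. Between P2 and P8 the Cd73NC level was 3.71-fold higher on FPKM + 1, and at P5 it was already 3.42-fold higher. Cd73PC was 1.61-fold higher at P5 than at P2 and then 1.17-fold lower at P8. Kdm6b was thus 1.53-fold higher in Cd73PC than in Cd73NC at P2 (log2 ratio 0.61, 0.46 to 0.75 from the bounds), lower at P5 (-0.47), and 1.77-fold lower at P8 (-0.82). The P2 value lies just past the threshold of 1.5-fold. Several other sums and genes were also higher in Cd73NC at P8 than at P2. At P2, P5, and P8 the bipolar sum was 10.7 (with Grm6 and Bhlhe23 at 0), 80.5, and 1187. The microglial sum was 7.70, 54.4, and 153, and the erythroid sum was 133, 2009, and 7007. The immediate early genes Egr1 (9.01, 25.3, and 34.9) and Fos (5.61, 10.1, and 22.0) rose too. Most of the rise of Kdm6b and of Egr1 had come by P5, and most of the rise of the bipolar, microglial, and erythroid sums and of Fos came after P5. Egr1 and Fos, which cells induce within minutes of a stimulus, were chosen after their values were seen. Like Kdm6b, the microglial and bipolar sums were higher in Cd73PC than in Cd73NC at P2 and lower at P5 and P8. The microglial sum of Cd73PC was 563%, 69.4%, and 77.6% of that of Cd73NC. The bipolar sum of Cd73PC was 337% of that of Cd73NC at P2 and 12% at P8. Most of the bipolar excess at P2 was Gng13 (23.3 against 0.995). Isl1 was lower in Cd73PC at P2 (0.776 against 4.79), Prkca was close (3.67 against 3.40), and Vsx1, Grm6, and Bhlhe23 were near 0 in both fractions. At P5 Gng13 was still higher in Cd73PC (10.2 against 5.41), as were Trpm1 and Prkca, so the bipolar genes did not share 1 course. The erythroid sum was lower in Cd73PC at all 3 ages. Egr1 was also higher in Cd73PC (17.0) than in Cd73NC at P2 and lower at P5 (13.2 against 25.3) and P8 (15.9 against 34.9). Fos likewise was at 10.5, 3.39, and 3.31 in Cd73PC against 5.61, 10.1, and 22.0 in Cd73NC. Of the 4 other stress and immediate early genes looked up with them, Junb was higher in Cd73PC at all 3 ages (17.3, 11.0, and 9.27 against 3.80, 8.20, and 4.66), and Fosb, Atf3, and Hspa1a were at 6.36 or below. The part of these cells and genes in the Kdm6b result was not tested.

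Kdm6a (chrX:17739793-17856484, plus strand), the X-linked relative of Kdm6b, varied least of the 9 genes. It had an FPKM of 11.8 at E15, 12.9 at E18, 11.2, 13.7, and 11.6 in Cd73NC at P2, P5, and P8, and 15.3, 13.6, and 14.3 in Cd73PC. The bounds overlapped in all 7 neighbouring pairs of its order, and no comparison took it past 1.5-fold. The larger differences were the excess of Cd73PC at P2 (1.34-fold) and at P8 (1.21-fold), where the bounds did not overlap. Kdm6b was therefore the part of the pair that varied: the ratio of Kdm6b to Kdm6a FPKM was 2.06 at E15, 1.60 at E18, 1.29, 3.77, and 4.83 in Cd73NC, and 1.47, 2.71, and 2.19 in Cd73PC. Uty, the Y-linked homolog of Kdm6a, had an FPKM of 2.58 to 7.00. Reads of 36 bases could be shared between Kdm6a and Uty, and between Kdm5c and its Y-linked homolog Kdm5d (2.71 to 4.50), so these rows are less certain than the others.

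Among the lysine 4 demethylases, Kdm5b (chr1:136456755-136529455, plus strand) stood out. It had an FPKM of 31.9 at E15, 25.4 at E18, 25.6, 58.9, and 50.5 in Cd73NC at P2, P5, and P8, and 57.3, 49.8, and 75.3 in Cd73PC. The 3 lowest libraries were E18, Cd73NC at P2, and E15, and the other 5 were all at 49.8 or above. At P2 Cd73PC was 2.20-fold higher than Cd73NC (log2 ratio 1.13, 1.01 to 1.23 from the bounds), and 93.5% of the genes compared had a lower ratio. Cd73NC at P2 had the level of E18 (1.01-fold), and Cd73PC at P2 was 2.21-fold above E18. At P5 this had closed, since Cd73NC was 2.25-fold higher than at P2 and stood at 118% of Cd73PC. The rod marker sum of that Cd73NC library was 12.1% of Cd73PC. At P8 Kdm5b was 1.48-fold higher in Cd73PC, just under the threshold, and past it after scaling to the upper quartile or quantile normalization (log2 ratios of 0.73 and 0.67).

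Kdm5c (chrX:148667773-148708897, plus strand) had an FPKM of 29.5 at E15, 26.3 at E18, 20.0, 28.5, and 29.1 in Cd73NC, and 23.3, 26.8, and 35.6 in Cd73PC at P2, P5, and P8. Both fractions were lowest at P2, and Cd73PC at P8 was the highest library, 1.51-fold above Cd73PC at P2. Kdm5a (chr6:120314117-120394592, plus strand) had an FPKM of 10.8 at E15, 10.3 at E18, 11.2, 13.5, and 10.1 in Cd73NC, and 16.4, 12.7, and 12.4 in Cd73PC. Cd73PC at P2 was the highest library for Kdm5a, 1.43-fold above Cd73NC of the same age. Kdm5a was the least expressed of Kdm5a, Kdm5b, and Kdm5c in every library.

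The make-up of the Kdm5 family set the same 3 libraries apart as the level of Kdm5b did. Since Kdm5b is a large part of the family's summed FPKM, this follows in part from its level alone. Kdm5b made up 44.1%, 40.9%, and 45.0% of the summed Kdm5a, Kdm5b, and Kdm5c FPKM at E15, at E18, and in Cd73NC at P2, and 55.7% to 61.1% in the other 5 libraries. The sum itself was 56.8 in Cd73NC at P2 and 123 in Cd73PC at P8, the lowest and the highest library. Kdm6a and Kdm5c are X-linked, and the mixture of sexes in the libraries is not given in the sources used here. Xist, expressed from the inactive X chromosome in female cells and looked up after the values were seen, was at 25.5 and 34.7 in the embryonic libraries and at 1.96 to 8.06 after birth, and its part in the levels of these 2 genes was not tested.

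**Figure D3:**
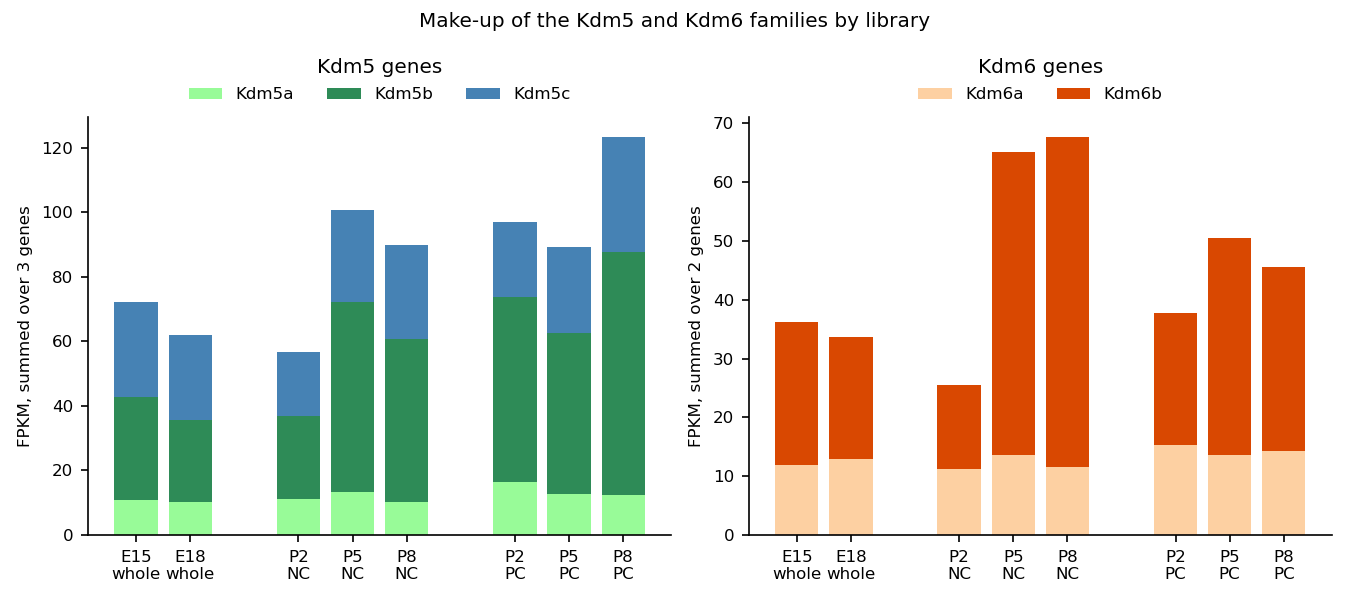
FPKM of the Kdm5 genes (left) and the Kdm6 genes (right), stacked within each of the 8 libraries (whole, whole retina; NC, Cd73NC; PC, Cd73PC); each bar is 1 library and both axes start at 0. The Kdm5b part is 44.1%, 40.9%, and 45.0% of the Kdm5 sum at E15, at E18, and in Cd73NC at P2, which have the smallest sums, and the Kdm6a part stays between 11.2 and 15.3 FPKM while Kdm6b runs from 14.4 to 56.1.

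Kdm1a (chr4:136106448-136158638, minus strand), which works with CoREST and histone deacetylases, was the most expressed member in 7 of the 8 libraries. Its FPKM was 61.6 at E15, 60.3 at E18, 68.8, 80.7, and 60.4 in Cd73NC at P2, P5, and P8, and 72.3, 52.6, and 39.6 in Cd73PC. In Cd73PC each later age was lower, while Cd73NC was highest at P5. The fractions were close at P2 (1.05-fold on FPKM + 1), and Cd73PC was 1.52-fold lower at P5 and 1.51-fold lower at P8, both just past the threshold. After scaling to the upper quartile neither ratio reached 1.5-fold (log2 ratios of -0.51 and -0.44), and after quantile normalization the P8 ratio did not (-0.51). The FPKM of Kdm1a exceeded its upper bound in 4 libraries, Cd73NC at P2, P5, and P8 and Cd73PC at P2, so its ratios rest on estimates that the bounds do not cover. In Cd73PC at P8 alone, Kdm5b exceeded Kdm1a: the ratio of Kdm5b to Kdm1a FPKM was 1.90 there and 0.372 to 0.947 in the other libraries.

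On the writing side, Setd1a (chr7:134920903-134943633, plus strand), a catalytic subunit, had an FPKM of 16.4 at E15, 18.1 at E18, 12.2, 11.8, and 11.8 in Cd73NC at P2, P5, and P8, and 10.8, 10.3, and 11.4 in Cd73PC. Both embryonic libraries were above all 6 postnatal libraries, and the 6 lay within 10.3 to 12.2. Against E18, Setd1a was 1.63-fold lower in Cd73PC and 1.45-fold lower in Cd73NC at P2, a step in which age and sorting cannot be told apart. The 2 fractions had overlapping bounds at all 3 ages.

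Ash2l (chr8:26927342-26958142, minus strand) had an FPKM of 34.4 at E15, 33.8 at E18, 39.7, 32.0, and 32.1 in Cd73NC at P2, P5, and P8, and 26.6, 19.2, and 15.2 in Cd73PC. All 3 Cd73PC libraries were below all other libraries. Cd73PC was 1.47-fold lower than Cd73NC at P2, just short of the threshold, 1.63-fold lower at P5, and 2.04-fold lower at P8 (log2 ratio -1.03, -1.24 to -0.83 from the bounds). Ash2l was the only member past 2-fold at P8.

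Wdr5 (chr2:27370667-27392055, plus strand) had an FPKM of 34.2 at E15, 34.5 at E18, 38.6, 27.4, and 19.3 in Cd73NC, and 23.4, 22.0, and 15.4 in Cd73PC. In contrast to Ash2l, Wdr5 was lower at each later age in both fractions. Cd73PC was 1.62-fold lower than Cd73NC at P2 (log2 ratio -0.70), and the log2 ratio was -0.31 at P5 and -0.30 at P8. Whether the ratios of the 2 cofactors differed between ages was not tested. For both genes Cd73NC at P2 was the highest library. The proliferating progenitor sum was 650 in that library and 20.9 in Cd73NC at P8, where Ash2l stood at 80.8% and Wdr5 at 49.9% of their P2 level, and its part in these levels was not tested.

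Counts of members were then read against all genes with an FPKM of at least 1 in either library of a comparison. At P2, 2 members (Kdm6b and Kdm5b) were past 1.5-fold higher in Cd73PC, against 14.5% of 12338 genes, and 1 (Wdr5) was lower, against 25%. At P5, 0 members were higher, against 12.3% of 12234 genes, and 2 (Kdm1a and Ash2l) were lower, against 27%. At P8, 0 members were higher, against 13% of 12366 genes, and 3 (Kdm6b, Kdm1a, and Ash2l) were lower, against 31.3%. Each count lies within 2 members of what the share of all genes would give for 9 genes. The median log2 ratio of the 9 members was 0.21, -0.24, and -0.05 at P2, P5, and P8, beside -0.14, -0.18, and -0.23 for all genes, and at P5 all 9 members were below 0. After scaling to the upper quartile, Kdm6a, Kdm5a, and Kdm5c were above 0 at P5 (0.09, 0.02, and 0.01).

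**Figure D4:**
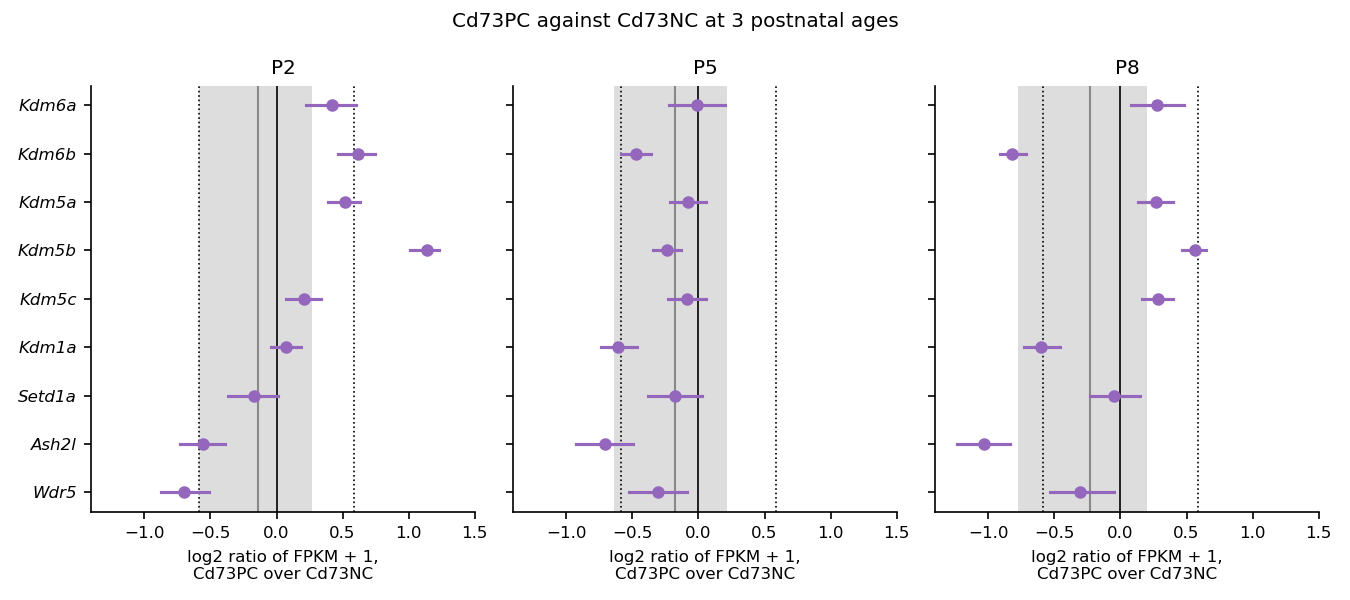
Log2 ratio of FPKM + 1 in Cd73PC over Cd73NC (horizontal axes) for the 9 genes at P2, P5, and P8; points are single pairs of libraries, bars are the range that the Cufflinks bounds allow, dotted lines mark 1.5-fold, the grey line is the median of all genes compared and the grey band their middle 50%. Kdm6b moves from 0.61 at P2 to -0.82 at P8, and Ash2l is furthest to the left at P8 (-1.03).

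Over the 3 ages together, 0 members were higher in Cd73PC by limma with Benjamini-Hochberg adjustment over 13060 genes, against 8.9% of the genes, and 1 (Ash2l) was lower, against 19.2%. At an unadjusted p under 0.05 there were 2 members, Ash2l and Wdr5, both lower. The share of all genes at that level was not counted, but it cannot be below the adjusted shares of 8.9% and 19.2%. Of all genes called after adjustment, 31.7% were higher in Cd73PC, and 49.0% after quantile normalization. Ash2l had a mean log2 ratio of -0.77 (SE 0.15, adjusted p = 0.0182 by limma) and was lower in Cd73PC at 3 of 3 ages. The Ash2l call was lost without P5 (adjusted p = 0.129 by limma), without P8 (0.0609), and without the block (0.0900). Of all 13060 genes, 2504 were called lower in the full fit, 110 without P5, 1808 without P8, and 646 without the block. The mean log2 ratio of Ash2l was -0.80 without P5 and -0.63 without P8. Wdr5, also lower at 3 of 3 ages, had a mean log2 ratio of -0.44 (SE 0.15) and an adjusted p of 0.0778 by limma. Kdm5b, whose ratio changed sign at P5, had a mean log2 ratio of 0.49 with a 95% interval of -0.19 to 1.16. The interval for Kdm6b was -0.95 to 0.50. Without P2, Kdm1a also passed, with a mean log2 ratio of -0.60 (adjusted p = 0.0458 by limma).

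Members with bounds that did not overlap between the fractions were more numerous, 7 of 9 at P2, 5 of 9 at P5, and 8 of 9 at P8, beside 66.6%, 62.9%, and 67.8% of all genes. The members whose bounds overlapped were Kdm1a and Setd1a at P2, Kdm6a, Kdm5a, Kdm5c, and Setd1a at P5, and Setd1a at P8. The split of all genes past 1.5-fold depended on the scaling: 31.3% of them were higher in Cd73PC at P5 and 29.4% at P8, and after quantile normalization 47.5% and 47.6%. At P8 the median of all genes was -0.08 after scaling to the upper quartile and 0.03 after quantile normalization. Relative to the median of all genes as deposited, the P8 log2 ratio was -0.80 for Ash2l, -0.59 for Kdm6b, -0.37 for Kdm1a, and 0.79 for Kdm5b.

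Between E15 and E18, before sorting, 0 members were past 1.5-fold higher, against 7.6% of 12629 genes, and 0 were lower, against 3.47%. The bounds did not overlap for 3 members, Kdm6b, Kdm5b, and Kdm5c, which were all lower at E18, with log2 ratios of -0.22, -0.32, and -0.16, and for 31.6% of all genes. The median log2 ratio was -0.03 for the members and 0.04 for all genes, of which 68.7% of those past 1.5-fold were higher at E18 (54.7% after quantile normalization).

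Over time within a fraction, comparisons share their libraries with those between the fractions and are given beside them only as values. From P2 to P8 in Cd73PC, 1 member (Kdm5c, 1.51-fold) was higher, against 11.2% of 12072 genes, and 2 (Kdm1a, 1.81-fold, and Ash2l, 1.71-fold) were lower, against 25.7%. Wdr5 was just short of the threshold at 1.49-fold lower. Of all genes past 1.5-fold here, 30.4% were higher at P8, and 42.8% after scaling to the upper quartile or 48.5% after quantile normalization. In Cd73NC, 2 members (Kdm6b, 3.71-fold, and Kdm5b, 1.94-fold) were higher, against 21.6% of 12753 genes, and 1 (Wdr5, 1.95-fold) was lower, against 24%. The member medians were -0.09 in Cd73PC and -0.05 in Cd73NC, beside -0.19 and -0.06 for all genes.

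Other genes of the same pathways were taken from whole pathway lists. Beside the list counts that follow, 14.5% of all genes were higher and 25% lower in Cd73PC at P2. The shares were 12.3% and 27% at P5 and 13% and 31.3% at P8. Of 15 further genes of the H3K4 methyltransferase complexes, 2 were higher and 2 lower in Cd73PC at P2. At P5 the counts were 0 and 1 and at P8 they were 0 and 2, with medians of -0.05, -0.13, and -0.18. Wdr82, a subunit of the Setd1 but not of the Mll complexes, was the gene of this list past 1.5-fold in the same direction at all 3 ages, with an FPKM of 35.2, 28.9, and 28.4 in Cd73PC and 63.1, 49.7, and 58.2 in Cd73NC. It was thus lower in Cd73PC at each age, as Ash2l was, while the shared subunit Rbbp5 had 19.7, 15.1, and 16.2 in Cd73PC and 19.7, 16.3, and 17.3 in Cd73NC. Rbbp5 was named after its values were seen.

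Of 8 partners of Kdm1a, 1 was higher and 0 lower in Cd73PC at P2. At P5 the counts were 0 and 2 and at P8 they were 0 and 4, with medians of -0.27, -0.31, and -0.54. No partner was past 1.5-fold in one direction at all 3 ages. The CoREST gene Rcor2, named after its values were seen, had an FPKM of 64.3, 43.4, and 12.6 in Cd73PC and 82.9, 103, and 73.3 in Cd73NC. At P8 Rcor2 was the partner furthest from equal levels, with a log2 ratio of -2.45.

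Among the 4 other demethylases of lysine 4 or lysine 27, 0 were past 1.5-fold at P2, 1 was lower at P5, and 1 was higher and 1 lower at P8. Of 11 Jumonji-type demethylases of other lysines 10 could be compared, and 3 were higher and 1 lower at P2. The counts were 1 and 3 for P5 and 2 and 2 for P8. Kdm4c, a lysine 9 demethylase, was higher at all 3 ages (32.9, 40.6, and 53.6 in Cd73PC, and 10.4, 15.7, and 12.6 in Cd73NC), and Kdm2b, a lysine 36 demethylase that recruits polycomb complexes to CpG islands, was lower at all 3 (11.9, 7.79, and 6.81 against 18.9, 18.1, and 16.8). These differences were larger than those of any Kdm5 or Kdm6 gene at P5 and P8.

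On the side that writes lysine 27 methylation, 2 of 7 PRC2 genes were higher and 1 lower in Cd73PC at P2. The counts were 1 and 1 for P5 and 2 and 2 for P8. Ezh2, the catalytic subunit, was lower at all 3 ages (49.1, 21.5, and 13.3 in Cd73PC, and 82.1, 43.3, and 32.3 in Cd73NC), and Jarid2, which recruits the complex, was higher at all 3 (31.2, 51.5, and 63.9 against 9.90, 30.0, and 30.5). Ezh2 was lower at each later age in both fractions, while the lysine 27 demethylase Kdm6b was higher at P8 than at P2 in both. The ratio of Cd73PC to Cd73NC was below 1 for Ezh2 and Kdm6b alike at P5 and P8. Between E15 and E18, 0 genes of any of these 5 lists were past 1.5-fold, against 7.6% of all genes higher and 3.47% lower. For the change from P2 to P8, the shares of all genes were 11.2% higher and 25.7% lower in Cd73PC. They were 21.6% and 24% in Cd73NC. From P2 to P8, the counts higher and lower were 1 and 2 in Cd73PC and 4 and 2 in Cd73NC for the methyltransferase complexes, 0 and 3 and 1 and 1 for the Kdm1a partners, 0 and 2 and 1 and 2 for the other demethylases, 2 and 1 and 2 and 0 for the Jumonji-type enzymes, and 1 and 4 and 2 and 5 for PRC2.

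The genes whose course over the 8 libraries lay closest to a member were found among 10120 genes with an FPKM of at least 1 in every library, by the root mean square difference of log2(FPKM + 1) after each gene was centred on its own mean. This was done for the 5 members that span at least 1 on the log2 scale. It is a description over 8 libraries, in which both fractions of an age came from the same pool of retinas. For Kdm6b they were Hmox1 (0.14), Tnk2 (0.21), and Iqsec1 (0.24). Hmox1, the inducible heme oxygenase, had an FPKM of 1.86, 6.38, and 8.18 in Cd73NC and 3.55, 4.66, and 4.60 in Cd73PC, and so crossed over between P2 and P5 as Kdm6b did.

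For Kdm5b the closest genes were Npc1, Phf8, and Baz2a, each at 0.18. Phf8, itself a demethylase that binds H3K4me3, had an FPKM of 12.3, 20.4, and 24.7 in Cd73NC and 22.8, 23.4, and 27.3 in Cd73PC. For Kdm1a they were Cbfa2t2, Spag9, and Vkorc1 (0.08, 0.09, and 0.10), for Ash2l Ppil3, Smarce1, and Ss18 (0.05, 0.08, and 0.08), and for Wdr5 Mettl2, Gnb2l1, and Mogs (0.07, 0.08, and 0.08). Smarce1 and Ss18 encode subunits of the BAF chromatin remodelling complexes. The distances for Kdm6b and Kdm5b were larger than those for Kdm1a, Ash2l, and Wdr5. The distance is not scaled to a gene's span, so genes that vary little lie close together. Among the members, the log2 span was largest for Kdm6b (1.89) and Kdm5b (1.53) and smallest for Kdm6a (0.42) and Kdm5a (0.65). Among the members themselves, the closest pairs were Kdm6a and Kdm5a (0.12), Kdm6a and Kdm5c (0.23), and Ash2l and Wdr5 (0.25), while Kdm6a and Kdm6b were 0.60 apart.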

How the data were processed

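Poly(A) RNA of 8 samples was sequenced by the authors with an Illumina kit for 36-base reads, 1 library for each condition. Per their methods and processing notes, the authors aligned the reads to NCBI37/mm9 with TopHat2 (2.0.8b), allowing up to 50 hits per read, and estimated FPKM with Cufflinks (2.1.1). The deposited tables hold FPKM and confidence bounds but no counts, so the absolute depth is unknown. The relative depth, read from the steps of low FPKM values, was 0.965 to 1.62 times that of E18, and 11154 to 12416 genes had an FPKM of at least 1.

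Small RNA rows (783) were left out, rows of one symbol were summed, and failed estimates (4 to 10 rows per library) were taken as missing. In 1428 to 2170 rows per library the FPKM lies outside its own bounds. No other row's span overlaps that of a member. Ratios are on FPKM + 1, over genes with an FPKM of at least 1 in either library. Genes named are the 10 listed genes, Nt5e, the 3 genes with the closest course for each member that spans at least 1 on the log2 scale, and at most 4 genes of each pathway list past 1.5-fold in one direction at all 3 ages. Uty and Kdm5d, named as homologs, and Grm6 and Bhlhe23, named as markers at 0, were chosen after their values were seen, and others are marked in the text. The members and lists were chosen with earlier results of these data known. The fraction difference over the 3 ages was tested with limma 3.58.1 (R 4.3.3) on log2(FPKM + 1), with age as a block and trend in the variance, for genes with an FPKM of at least 1 in any of the 6 sorted libraries. The pairs come from the study's methods, which sorted both fractions from the same retinas. Alternatives were a pseudocount of 0.1, scaling to the upper quartile, quantile normalization, a 2-fold threshold, bounds that do not overlap, and no filter. Python 3.11.15, numpy 2.4.6, pandas 2.3.3, and matplotlib 3.10.9 were used, and the scripts were tested on simulated data.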

Additional observations from a re-analysis of the deposited data

Results flagged for a closer look

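Kdm6b differed between the fractions in opposite directions at different ages. On the log2 scale Cd73PC exceeded Cd73NC by 0.61 at P2, and the ratio was -0.47 and -0.82 at the later ages P5 and P8. The first and the last value are past 1.5-fold. Each value rests on 1 pair of libraries, and the difference between ages was not tested.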

How the results depend on the processing

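With 1 library per condition, no library could be left out of a comparison at a single age. Over the 3 ages, the limma fit with age as a block called 1 member, and 0 without the age block, 2 without P2, and 0 without P5 or without P8. Of 13060 genes, 1162 were called higher and 2504 lower with the block, and 403 and 646 without it. The counts of all genes were 1020 and 2240 without P2, 179 and 110 without P5, and 818 and 1808 without P8. The mean log2 ratio of Ash2l, -0.77, stayed past an adjusted p of 0.05 under both scalings and without P2. At a 2-fold threshold the members past it numbered 1 at P2, 0 at P5, and 1 at P8 between the fractions, and 0 in Cd73PC and 1 in Cd73NC from P2 to P8, where 3, 2, 3, 3, and 3 were past 1.5-fold. Of all genes, 20.5%, 20.1%, 26.3%, 16.6%, and 24.8% were past 2-fold there. With bounds that do not overlap the counts were 7, 5, and 8 at P2, P5, and P8, 3 between E15 and E18, and 7 in Cd73PC and 6 in Cd73NC from P2 to P8, beside 66.6%, 62.9%, 67.8%, 31.6%, 65.9%, and 71.5% of all genes. Scaling to the upper quartile left 1 member at P5 (Ash2l), since the Kdm1a ratio no longer reached 1.5-fold, and at P8 it likewise dropped Kdm1a (-0.44) and added Kdm5b (0.73). Quantile normalization made the same exchange at P8 (Kdm5b 0.67) and added Kdm5a at P2. The pseudocount of 0.1 added Wdr5 from P2 to P8 in Cd73PC, and upper quartile scaling added Kdm6b there. Of the 54 member ratios, 54, 44, and 44 moved by less than their bounds allow under the pseudocount, the upper quartile, and quantile normalization. The sign changed in 0, 7, and 6 ratios, none of them past 1.5-fold. Calls near 1.5-fold, such as both Kdm1a ratios, therefore depend on scaling. All member values were above an FPKM of 10, but the absolute depth is unknown, so a limit from depth was not tested.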
